A study of Mus musculus with 6 samples.

Results

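Imprinted gene loci were followed in the colonic mucosa of Tlr2 knockout mice through the spots of a promoter and CpG-rich methylation array that lie in 11 windows of the mm9 genome around H19 to Kcnq1, Snrpn, Ndn, Peg3, Gnas, Nnat, Mest, Grb10, Meg3, Igf2r and Plagl1. The windows were chosen by the names of the loci and not by signal. They hold 240 of the 103507 non-control spots of the array, in 10 of the 11 windows, and the Snrpn window holds 0. All mice were C57BL/6 at 90 postnatal days, and the groups were wild type and Tlr2 knockout (Tlr2-/-), which lacks Toll-like receptor 2, a sensor of bacterial lipoproteins on epithelial and immune cells. Mucosa was scraped from the colon, so a sample is a mix of cell types. DNA of 2 knockout and wild-type pairs, numbered 1 and 4, was compared on 2 two-colour methylation arrays, and RNA of 4 pairs, numbered 1, 2, 4 and 5, on 4 two-colour expression arrays. On both methylation arrays the wild-type DNA carried Cy3 and the knockout DNA Cy5, so dye and genotype cannot be told apart there. The labels do not say whether a sample is 1 animal or a pool, and p-values then measure only the spread between these samples.

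An imprinted gene is transcribed mainly from the copy inherited from one parent, and the copy is chosen by a differentially methylated control region whose methylation is set in the egg or sperm and kept in body cells. At H19 and Igf2 the paternal copy of the control region is methylated, which keeps the insulator protein CTCF off it and leaves the growth factor gene Igf2 active, while the maternal copy expresses the noncoding RNA H19. In the neighbouring Kcnq1 domain the control region is the promoter of the noncoding RNA Kcnq1ot1, methylated on the maternal copy, and the paternal RNA silences growth-restraining genes such as Cdkn1c and Phlda2. Meg3 also has a control region methylated on the paternal copy, and Peg3, Mest, Grb10, Plagl1, Nnat, Snrpn and the Igf2r region have ones methylated on the maternal copy. In the methylation-sensitive amplification used here, DNA is cut with SmaI, which is blocked by methylation of its site, and then with XmaI, which is not, so that stretches whose end sites are methylated are ligated and amplified. A stronger signal is therefore read as more copies with methylated sites at both ends.

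The recognition site of both enzymes is CCCGGG, which reads the same on both strands. Its positions decide which stretches of a locus the assay can see. The following RefSeq promoter windows (assembly GRCm38.p6, 250 bases before to 50 after a transcript start, 300 bases) are shown because they are the ones with the site among the genes that name the loci, and the capitals mark it.
Gnas, chr2:174329756-174330055, plus strand: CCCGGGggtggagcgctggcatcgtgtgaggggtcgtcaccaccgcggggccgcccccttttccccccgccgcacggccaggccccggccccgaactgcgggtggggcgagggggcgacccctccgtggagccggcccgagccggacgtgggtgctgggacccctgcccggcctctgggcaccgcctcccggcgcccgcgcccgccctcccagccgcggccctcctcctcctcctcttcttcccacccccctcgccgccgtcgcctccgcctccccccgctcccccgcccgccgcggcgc
Grb10, chr11:12027922-12028221, minus strand: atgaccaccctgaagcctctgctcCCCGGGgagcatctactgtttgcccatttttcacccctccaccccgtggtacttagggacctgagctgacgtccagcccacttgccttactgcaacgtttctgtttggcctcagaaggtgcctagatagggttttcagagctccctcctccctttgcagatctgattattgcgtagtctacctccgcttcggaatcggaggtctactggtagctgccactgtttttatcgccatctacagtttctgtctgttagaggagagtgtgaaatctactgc
Grb10, chr11:12037371-12037670, minus strand: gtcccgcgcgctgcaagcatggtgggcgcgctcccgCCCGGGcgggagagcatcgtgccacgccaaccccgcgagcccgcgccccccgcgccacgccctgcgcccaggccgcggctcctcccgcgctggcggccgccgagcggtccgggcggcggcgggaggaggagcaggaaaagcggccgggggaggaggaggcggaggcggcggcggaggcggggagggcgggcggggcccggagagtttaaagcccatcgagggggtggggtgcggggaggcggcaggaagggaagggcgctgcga
Igf2r, chr17:12769657-12769956, minus strand: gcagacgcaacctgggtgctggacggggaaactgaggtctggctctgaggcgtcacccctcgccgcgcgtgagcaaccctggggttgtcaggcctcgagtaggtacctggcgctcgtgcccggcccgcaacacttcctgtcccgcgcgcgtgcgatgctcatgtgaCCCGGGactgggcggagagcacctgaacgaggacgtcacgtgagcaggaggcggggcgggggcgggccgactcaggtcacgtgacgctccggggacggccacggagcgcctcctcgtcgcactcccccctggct
The Gnas window opens with the site and holds 40 CG pairs, and the Grb10 windows hold the site from base 25 and base 37, with 9 and 45 CG pairs. In Igf2r it starts at base 167 of a window with 34 CG pairs. Across the 37 of 46 listed imprinted genes that matched this table, 5 of 53 promoter windows held the site (9.43%), against 4436 of all 32851 windows (13.5%), and the fifth belongs to Osbpl5 in the Kcnq1 domain. These coordinates are of another assembly than the array, whose intervals are given in mm9, so the windows were not placed on the intervals. For the same reason no interval was assigned to an exon, an intron or a promoter.

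Of the 240 spots, 231 stood well above background in wild type, knockout or both on each array, and 228 remained after 3 outlier spots were removed. Probes that started up to 500 bp apart were joined, which gave 73 intervals of the array's 29875, with 1 to 15 probes each and 40 of them with at least 2. The H19 to Kcnq1 window holds 42 of the 73. The Meg3 window holds 6, Nnat 5, Gnas and Plagl1 4 each, Ndn, Peg3 and Grb10 3 each, Igf2r 2 and Mest 1. Probes in these windows were well above background at 94.2% (wild type, pair 1) to 97.1% (knockout, both pairs), against 91.1% to 94.8% over the array. Median processed signal over the array was 10151 (wild type) and 9015 (knockout) in pair 1 and 2753 and 2760 in pair 4, so the pair 1 array was the brighter. Of the 240 spots 6 were saturated on the pair 1 array and 4 on the pair 4 array, among them 1 spot each in the densest Nnat and Gnas intervals, and they were kept. All methylation values below are log2 values relative to the array's median, and a ratio is knockout over wild type.

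As a set, the imprinted intervals stood where the rest of the array stood. No interval of the 73 was called by limma at an adjusted p of 0.05, and 0% of all 29875 were. Unadjusted p was under 0.05 for 4 of the 73 and for 1496 of all, and the smallest adjusted p of limma with Benjamini-Hochberg adjustment was 0.692 in the windows and 0.576 over the array. By the submitters' rule, a change over 1.6-fold in the same direction on both arrays, 2 imprinted intervals were higher in the knockout (2.74%, with 1.92% of all intervals) and 2 were lower (2.74%, with 1.78% of all). The values of both knockout samples lay above both wild-type samples in 18 intervals (24.7%, with 24.4% of all) and below them in 17 (23.3%, with 23.5% of all). The ratio was above 0 on both arrays in 23 (31.5%, with 31.5% of all) and below 0 on both in 26 (35.6%, with 29.2% of all). It was of opposite sign in the remaining 24 (32.9%, with 39.3% of all). The median ratio was -0.08 in the windows and -0.03 over the array.

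**Figure D1:**
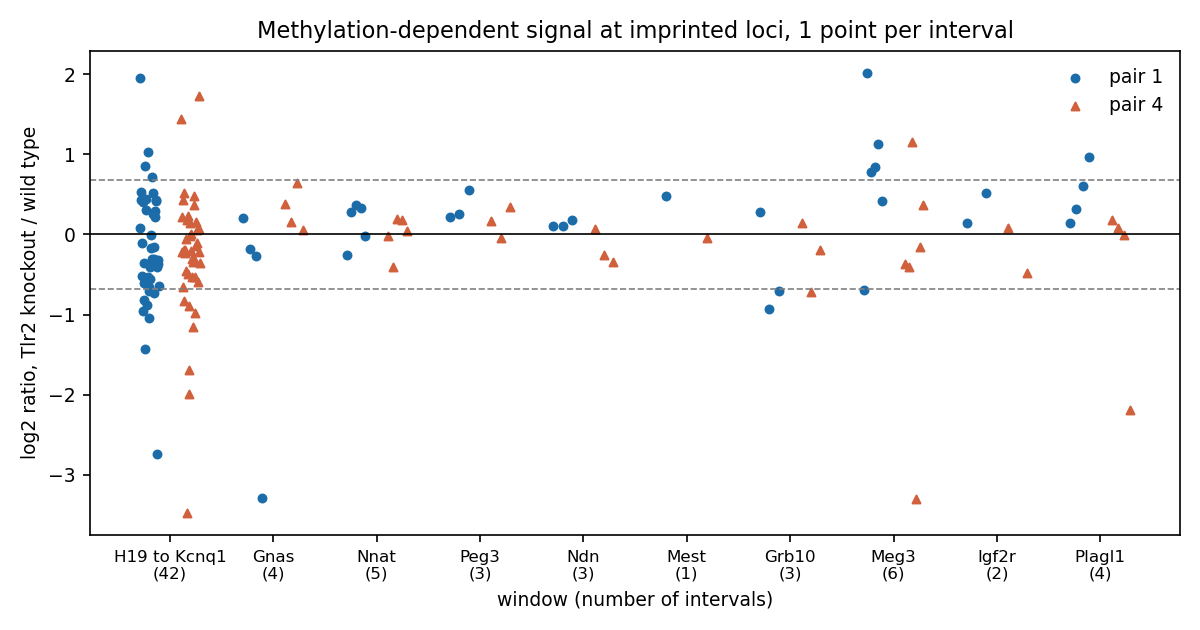
Log2 ratio of knockout over wild type (y axis) for each interval in the 10 windows with spots (x axis, number of intervals in brackets), as circles for the pair 1 array and triangles for the pair 4 array. Dashed lines mark 1.6-fold, and the Gnas circle at -3.29 stands against a triangle at 0.05 for the same interval.

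Of the 4 intervals past 1.6-fold on both arrays, only 1 stood clear of the array's floor in every sample, at levels below the array's median. It lies at chr7:150155434-150155980 in the H19 to Kcnq1 window and has 3 probes. Its level was -0.70 and -0.81 in the wild-type samples of pairs 1 and 4 and -1.58 and -1.70 in the knockout samples. Both knockout samples lay below both wild-type samples, and the genotypes were further apart than the samples within either. The ratio was -0.88 in pair 1 and -0.89 in pair 4 (mean -0.89, SD 0.0031, n = 2, limma adjusted p = 0.692). Single probes ranged from -0.95 to -0.76 in pair 1 and from -1.02 to -0.79 in pair 4. The neighbouring probe at chr7:150154893-150154940 was also lower on both arrays, at -0.64 and -0.49.

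This interval is the imprinted one among the 387 in the authors' deposited table of methylation hits, where it stands among the 246 lower ones as chr7:150154852-150156161, with ratios of 0.591 and 0.605 on the 2 arrays and an average of 0.60. No source used here gives the build of the authors' deposited table, and its coordinates were read as mm9 because the array headers name it. The 4 probes inside those bounds gave 0.565 in pair 1 and 0.578 in pair 4 after median centring.

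The other intervals past 1.6-fold had signals near the floor of the array. A single Grb10 probe at chr11:11937235-11937279 had processed signals of 89.0 (wild type) and 49.4 (knockout) in pair 1 and 13.7 and 8.91 in pair 4, with ratios of -0.93 and -0.72. A pair of Meg3 probes at chr12:110783676-110784011 had 50.7 and 92.1 in pair 1 and 10.6 and 25.1 in pair 4, with ratios of 0.78 and 1.15. Only 1 of its probes was well above background in wild type. The other, at 0.78 and 1.35, passed the filter on dim spots only through the knockout channel, so its direction supports nothing. A single probe at chr7:149712320-149712379 had 9.62 and 39.4 in pair 1 and 3.35 and 9.72 in pair 4, with ratios of 1.95 and 1.44. Its wild-type signal was not well above background on either array, so the size of its ratio is not reliable. The probe passed the filter on dim spots only through the knockout channel, where it is the brighter, so its direction supports nothing. Both higher intervals of the rule thus rest, in whole or in part, on probes kept through the knockout channel alone. These signals are far below the median of their arrays. With normexp background correction in place of the scanner's processed signals, the Grb10 probe stayed lower at -1.02, while the Meg3 interval and the chr7 probe changed sign, to -0.37 and -0.64.

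The H19 to Kcnq1 window leaned lower in the knockout. Of its 42 intervals 22 were below 0 on both arrays, as were 29.2% of all intervals. In 11 the ratio was above 0 on both (31.5% of all) and in 9 of opposite sign (39.3% of all). The window's median ratio was -0.30 in pair 1 and -0.20 in pair 4. Both knockout samples lay below both wild-type samples in 14 of them (23.5% of all intervals of the array) and above in 7 (24.4% of all). Intervals of 1 window are neighbours on a chromosome and not independent, and the difference from the other windows was not tested.

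The lower values came in short runs. The longest run is chr7:149845123-149850008, with 21 probes in 5 intervals, all below 0 on both arrays. Ratios ran from -1.43 to -0.36 in pair 1 and from -0.46 to -0.06 in pair 4, so the array of pair 1 carried most of the difference. Its main interval, chr7:149845649-149847601, has 15 probes, the most of any imprinted interval. The level there was -0.38 and -0.88 in the wild-type samples and -1.19 and -1.11 in the knockout samples, so the samples did not overlap. The knockout samples lay close together and the wild-type samples did not. The ratio was -0.82 in pair 1 and -0.23 in pair 4 (mean -0.52, SD 0.413, n = 2, limma adjusted p = 0.692), and all 15 probes were below 0 in pair 1 and 10 of 15 in pair 4. At the end of the run, chr7:149849689-149850008 had the largest mean difference of the window among intervals of at least 2 probes with one direction on both arrays, at -1.43 and -0.46. Its level was -0.67 and -1.65 in wild type and -2.10 in both knockout samples, and its 2 probes differed widely in pair 1, at -2.60 and -0.26.

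Other runs of this window were lower on 1 array or both. At chr7:150255373-150257583, 6 probes in 4 intervals had means of -0.29 in pair 1 and -0.30 in pair 4, and 3 of the 4 intervals were below 0 on both arrays. At chr7:150237985-150240358, 8 probes in 3 intervals lay between -1.04 and -0.66 in pair 1 and between -0.21 and 0.14 in pair 4, with means of -0.80 and -0.03. At chr7:150514420-150515491 the pattern was the other way round, with -0.30 to -0.16 in pair 1 and -0.98 to -0.54 in pair 4. The 5-probe interval chr7:150687360-150687744 was lower on both arrays, at -0.65 and -0.35, with wild-type levels of 0.62 and 0.25 and knockout levels of -0.03 and -0.11.

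Higher intervals stood between them. At chr7:150451392-150451831, with 4 probes, the level was 1.296 and 1.80 in wild type and 2.01 and 2.18 in the knockout, so all 4 samples were bright and did not overlap. The ratios were 0.72 and 0.37, and 1 of its probes was saturated on the pair 1 array, where a ratio is less exact. At chr7:149816697-149816867, with 3 probes, the ratios were 0.41 and 0.52. The 7-probe interval chr7:150146721-150147689, close to the authors' lower interval, was at 0.30 and 0.23. A single direction therefore does not describe the window.

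**Figure D2:**
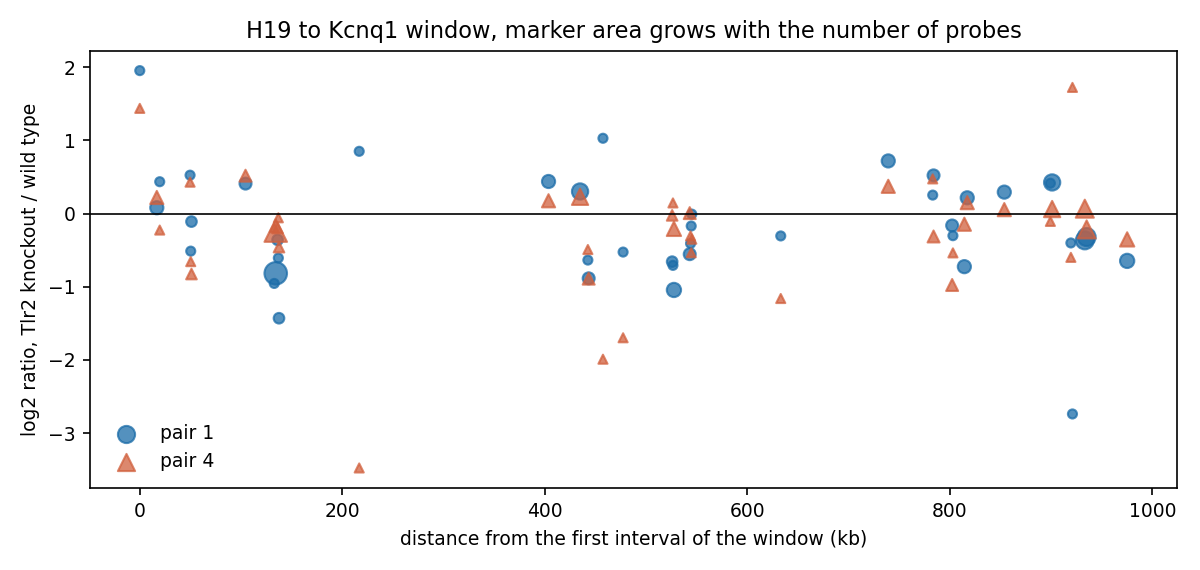
Log2 ratio of knockout over wild type (y axis) of the 42 intervals of the H19 to Kcnq1 window by distance from the first interval in kb (x axis), circles for pair 1 and triangles for pair 4, with larger markers for more probes. The large markers near the left are the 15-probe interval, at -0.82 and -0.23, and higher and lower intervals alternate along the window.

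At the other imprinted loci, 12 of 31 intervals were above 0 on both arrays (31.5% of all intervals of the array) and 4 below (29.2% of all). The other 15 were of opposite sign (39.3% of all), and the median ratio was 0.11. Grb10, which encodes an adaptor that restrains insulin and growth factor signalling, had lower values at one end and higher at the other. The 5-probe interval chr11:11937756-11938624, next to the dim probe above, had levels of 0.63 and 0.58 in wild type and -0.08 and 0.38 in the knockout. Its samples did not overlap, and the ratios were -0.71 and -0.20. The 3-probe interval chr11:11928336-11928503 was at 0.28 and 0.14.

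Meg3, a maternally expressed noncoding RNA, showed the same kind of split. The 4-probe interval chr12:110732745-110733573 had levels of 0.47 and 0.15 in wild type and -0.22 in both knockout samples, with ratios of -0.69 and -0.37 and all 4 probes below 0 on both arrays. The 4-probe interval chr12:110800362-110801092 had 1.28 and 1.49 in wild type and 1.69 and 1.86 in the knockout, with ratios of 0.41 and 0.37. Both intervals lay near or above the array's median, and in neither did the samples overlap. Adjusted p was 0.692 for each in limma.

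Peg3, a paternally expressed zinc finger gene, had its 3-probe intervals on the higher side. At chr7:6683484-6684424 the level was low, -2.80 and -2.69 in wild type and -2.25 and -2.35 in the knockout, with ratios of 0.55 and 0.34. At chr7:6605316-6605449 the ratios were 0.22 and 0.17. Plagl1, a zinc finger gene that restrains the cell cycle, had a 3-probe interval at chr10:12778859-12779731 with ratios of 0.32 and 0.08, at levels from -2.78 to -2.45. The samples did not overlap at any of these, and the differences were under 1.6-fold in each pair.

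Gnas, which encodes the stimulatory G protein alpha subunit and has several imprinted promoters, had its densest interval at chr2:174123830-174125724. Its 13 probes averaged -0.19 in pair 1 and 0.16 in pair 4, at levels between 0.80 and 1.04, so the samples overlapped. The 2-probe interval chr2:174110277-174110450 was higher on both arrays, at 0.20 and 0.38. Nnat, a proteolipid gene of the developing brain, lies inside an intron of Blcap. Its 11-probe interval chr2:157301231-157302148 averaged -0.25 and -0.02, with overlapping samples. These means hide a split, since each probe had opposite signs on the 2 arrays. In pair 1, 8 of the 11 were below 0 (range -0.60 to 0.16), and in pair 4 the other 3 were (range -0.79 to 0.33).

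Ndn, a paternally expressed gene of the Prader-Willi region, had a 6-probe interval at chr7:69522365-69523778 with ratios of 0.10 and 0.07, and its samples overlapped. Its single probes ran from -0.50 to 0.37 in pair 1 and from -0.18 to 0.46 in pair 4. The other intervals of the Ndn window were above 0 in pair 1 and below 0 in pair 4, at 0.10 and -0.26 and at 0.18 and -0.34. Igf2r, the receptor that clears IGF2, had a 3-probe interval at chr17:12962071-12962515 with ratios of 0.14 and 0.08. Mest, a paternally expressed hydrolase gene, had a single 4-probe interval, chr6:30602266-30603100, at 0.48 and -0.05. These 3 loci differed between genotypes by less than the 1.6-fold of the rule on each array.

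**Figure D3:**
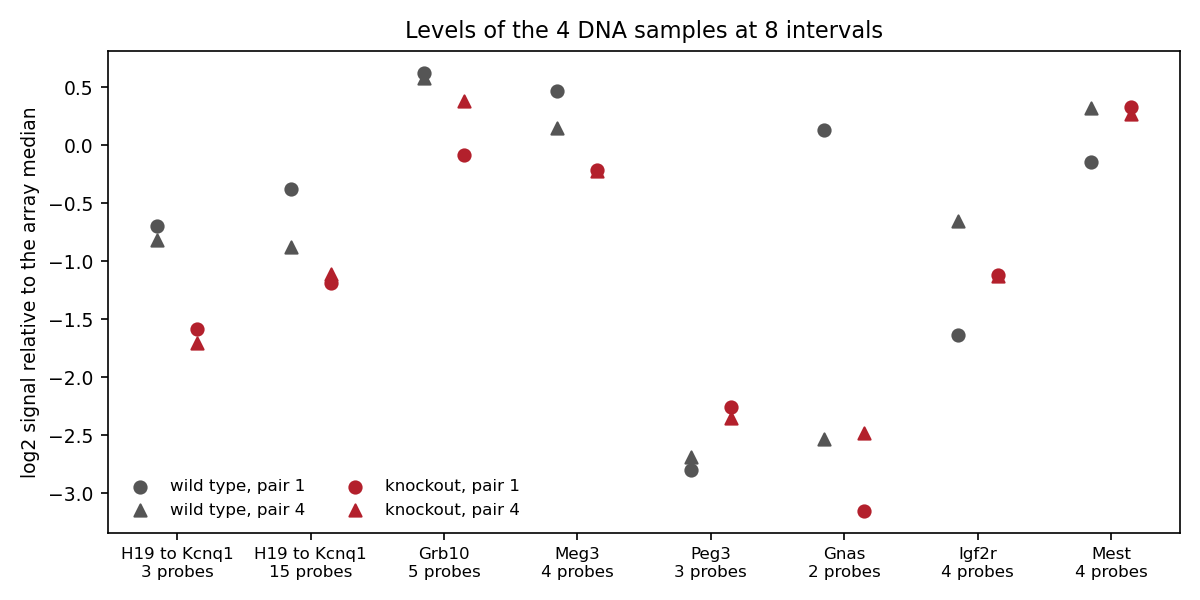
Log2 signal relative to the array median (y axis) of the 4 DNA samples at 8 intervals (x axis), grey for wild type and red for knockout, circles for pair 1 and triangles for pair 4. At the 3-probe H19 to Kcnq1 interval the genotypes separate, while at Gnas the wild-type sample of pair 1, at 0.13, stands apart from the other 3 samples, and at Igf2r the 2 knockout samples lie between the wild-type samples.

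The wild-type samples differed from each other more than the knockout samples did. Over the 73 intervals the median gap was 0.448 between the wild-type samples and 0.180 between the knockout samples, and the median size of the mean knockout to wild-type ratio, 0.341, lay between them. The wild-type gap was the wider in 59 intervals (80.8%, with 79.9% of all intervals), so this was shared with the whole array. It exceeded the mean ratio in 48 of the 73 intervals (65.8%, with 63.8% of all). All wild-type DNA carried Cy3, so dye and genotype cannot be told apart in these gaps either.

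The wild-type gap was over 1 in 14 imprinted intervals (19.2%, with 18% of all), 13 of them single probes, and the knockout gap in 4 (5.48%, with 5.72% of all). The 1 with several probes, chosen here after its values were seen, is the Gnas interval chr2:174155862-174155910. Its wild-type levels were 0.13 in pair 1 and -2.53 in pair 4, and its knockout levels -3.15 and -2.48, with ratios of -3.29 and 0.05. All its spots were well above background in all 4 samples. Its 2 probes, chr2:174155862-174155907 and chr2:174155866-174155910, overlap over most of their length and read the same DNA. Their agreement within each array is therefore not independent support. The Igf2r interval chr17:13026256-13026529 also turned over between arrays, with wild-type levels of -1.64 and -0.65 and knockout levels of -1.12 and -1.13. All 4 of its probes were above 0 in pair 1 and below 0 in pair 4, at means of 0.52 and -0.48. Here the knockout samples were alike and the wild-type samples stood on either side of them.

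**Figure D4:**
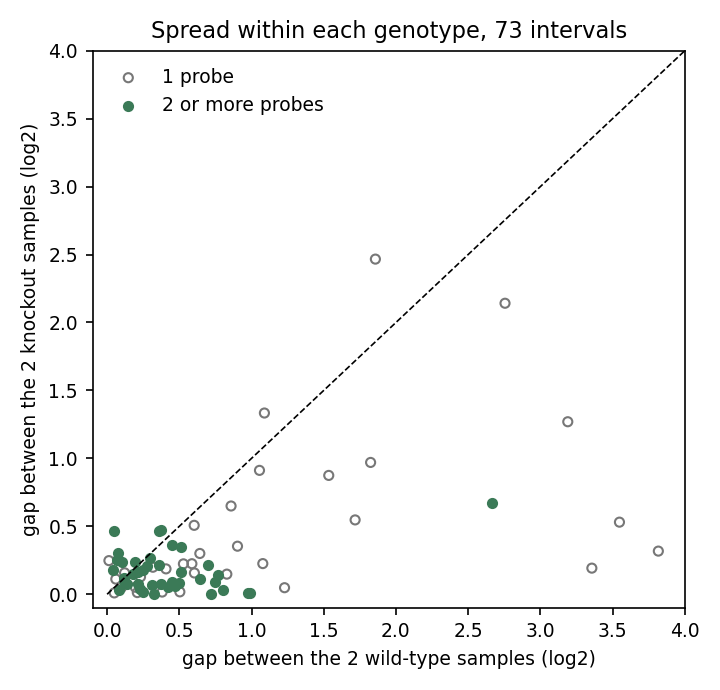
Absolute gap between the 2 knockout samples (y axis, log2) against that between the 2 wild-type samples (x axis, log2) for the 73 imprinted intervals, filled for 2 or more probes and open for 1 probe, with a dashed line of equal gaps. Most points, 59 of 73, lie below the line.

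Over the 73 intervals Pearson's r between the pair 1 and pair 4 ratios was -0.12 and Spearman's rho 0.20, and over the 40 intervals with at least 2 probes they were 0.36 and 0.51. Over all intervals of the array they were 0.05 and 0.15, and over those of at least 2 probes 0.03 and 0.22, so Pearson's r did not rise with several probes there. The points share dye orientation, and neighbouring intervals share DNA stretches, so these are descriptions. Within an imprinted interval the probes' ratios varied by a median SD of 0.146, close to the 0.127 of all intervals and smaller than the gap between the wild-type samples.

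The calls depended on the background correction. With normexp on the median signals, limma called 6 of the 73 intervals (8.22%), against 5.48% of all intervals. All 6 had a mean lower in the knockout, as did 1615 of the array's 1636. The 6 were the dim Grb10 probe, a pair of single Meg3 probes, the Gnas interval above and a pair of single probes of the H19 to Kcnq1 window. Under normexp the Gnas interval was at -3.06 in pair 1 and 0.0075 in pair 4, so it was not lower on both arrays. With processed signals, both Meg3 probes and the probe chr7:149929038-149929097 had opposite signs on the 2 arrays. The array's called intervals had a median level of -8.02, against -0.65 for those not called, and those 6 had levels from -9.36 to -2.01. The interval chr7:150155434-150155980 was not among them.

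The transcripts of the same loci were read on the expression arrays, where the knockout RNA carried Cy3 in pairs 1 and 2 and Cy5 in pairs 4 and 5. The knocked-out gene Tlr2 was at -4.42, -5.31, -5.50 and -4.20 in pairs 1, 2, 4 and 5, which is in the direction of the labels. In limma with a dye term its adjusted p was 0.313, so this fit called not even the deleted gene. Of 11 epithelial markers 10 were measured and all 10 were well above background in wild type on the 4 arrays, with 8 of them saturated on at least 1 array. Their median ratio was 0.62, 0.47, -0.52 and -0.42 in pairs 1, 2, 4 and 5, a change of sign that falls with the dye swap. Krt8, Car1 and Lgals4, saturated on all 4 arrays, shared ratios of 0.47, -0.87 and -0.61 in pairs 2, 4 and 5. These medians are therefore set largely by saturated probes and are not read as epithelial content. Markers of other cell types, not saturated, differed between pairs. The median ratio of the 5 smooth muscle genes was -1.10, -0.07, -0.25 and 0.40 in pairs 1, 2, 4 and 5, that of the 6 fibroblast genes 0.63, -0.69, -0.75 and 0.08, and that of 4 measured adipocyte genes -0.35, 0.05, 1.04 and 2.32. Fewer cells of a type and less RNA per cell cannot be told apart in such samples, and the part of these shifts in the methylation and transcript ratios was not tested.

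No imprinted transcript was called. Of 46 listed genes 36 matched a probe and 34 were measured, and limma called 0 of them, with 0% of all 14698 genes. Unadjusted p was under 0.05 for 4 of the 34 and for 1191 of all genes, and the smallest adjusted p of the list was 0.595. By the submitters' rule for transcripts 0 were higher and 0 lower, with 0.762% and 0.701% of all genes. The ratio was above 0 on all 4 arrays for 3 genes, Igf2, Nnat and Klf14 (7.18% of all genes), and below 0 for 2, Phlda2 and Copg2 (8.41% of all genes). The list's median was 0.02, and that of all genes -0.0084.

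In the H19 to Kcnq1 domain the ratios were small or differed between pairs. Igf2 was at 0.50, 0.24, 0.04 and 0.22 in pairs 1, 2, 4 and 5 (mean 0.25, SD 0.188, n = 4, limma adjusted p = 0.621). H19 was not analysed here. Kcnq1, a potassium channel of the epithelium, was at 0.40, -0.06, -0.05 and 0.19, and Kcnq1ot1 at 0.84, -0.43, -0.0018 and -0.18. Cdkn1c, a cyclin-dependent kinase inhibitor, was at 0.86, -0.08, -0.36 and 0.16. Phlda2, a growth-restraining gene, was at -0.12, -0.02, -0.48 and -0.59 (limma adjusted p = 0.595). None of these 5 transcripts moved by 1.6-fold in one direction on a pair of arrays, and pair 1 gave the highest value of Igf2, Kcnq1, Kcnq1ot1 and Cdkn1c. Among the domain's other measured genes, Cd81 was at -0.78, -0.66, 0.24 and -0.36 (limma adjusted p = 0.598). Osbpl5 was at -0.16, 0.44, 1.21 and 0.45 (limma adjusted p = 0.621).

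Elsewhere no transcript passed the test, and the genes with the largest means varied between pairs. Igf2r was at -0.27, 0.22, 1.09 and 1.24 (mean 0.57, SD 0.719, n = 4, limma adjusted p = 0.595), lower in pair 1 and higher in the other 3. Plagl1 was at 2.17, 0.09, -0.71 and 0.54, and Gnas at -1.15, 0.57, 0.68 and 0.12. Ddc, a gene next to Grb10, had a mean of -0.55 with an SD of 0.873 (n = 4). Blcap, the host gene of Nnat, was at -0.02, 0.17, 0.86 and 0.62, with a mean of 0.41 and an SD of 0.402. The adipocyte medians given above were, like Igf2r, below 0 in pair 1 and highest in pairs 4 and 5. Pairs 4 and 5 are also the arrays where the knockout RNA carried Cy5. The part of cell mix or of dye in the Igf2r ratio was not tested. Nnat was at 0.28, 0.06, 0.15 and 1.04, and Snrpn at -0.47, 0.77, -0.53 and -0.03. Peg3, Ndn and Grb10 transcripts lay between -0.07 and 0.10 on every array, and Mest between -0.22 and 0.31 with wild-type signal well above background on only 1 array. Meg3 and Airn were not analysed here.

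The pairs measured in both assays can be set side by side, without a test, since there are 2 of them. The Gnas transcript was at -1.15 in pair 1 and 0.68 in pair 4. The Gnas intervals, in order of position, were at 0.20, -0.19, -0.27 and -3.29 in pair 1 and at 0.38, 0.16, 0.64 and 0.05 in pair 4. The Igf2r transcript was at -0.27 and 1.09 in pairs 1 and 4, its 3-probe interval at 0.14 and 0.08, and its 4-probe interval at 0.52 and -0.48. In the H19 to Kcnq1 window the Igf2 transcript was at 0.50 and 0.04, and that of Ascl2, a listed gene of the Kcnq1 domain, at -0.43 and 0.29. The interval chr7:150155434-150155980 of this window was at -0.88 and -0.89. Which gene lies nearest to it was not determined. Intervals were not assigned to promoters or genes, so these are values of 1 window and not of 1 element.

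**Figure D5:**
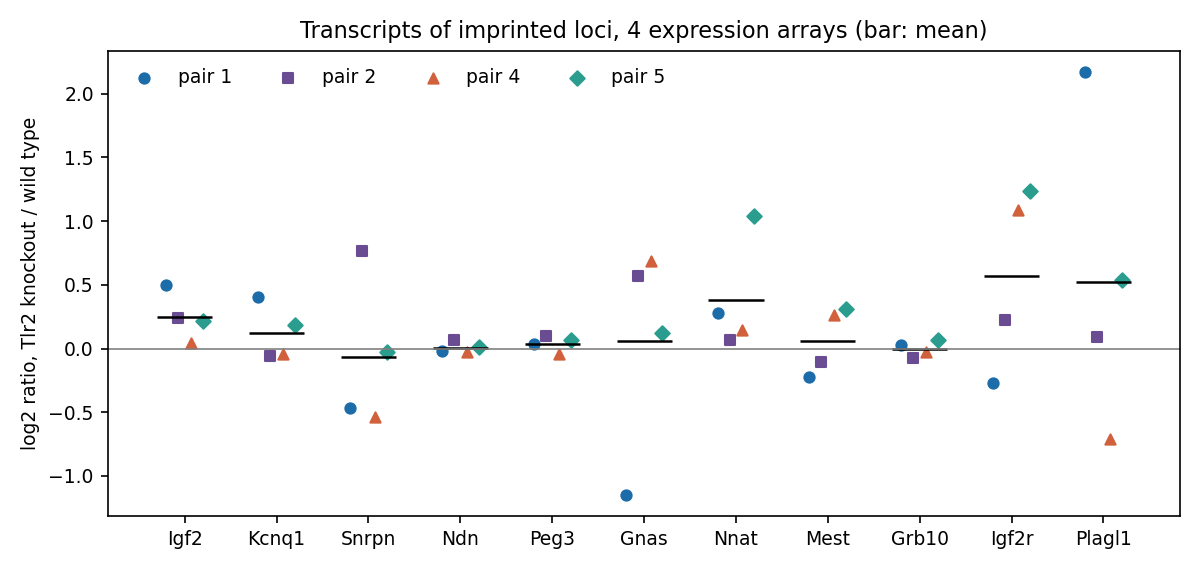
Log2 ratio of knockout over wild type (y axis) of 11 transcripts that name imprinted loci (x axis), 1 marker per expression array for pairs 1, 2, 4 and 5, with a bar at the mean. The arrays scatter around 0 for Ndn, Peg3 and Grb10, and spread widely for Gnas, Igf2r and Plagl1, the last with pair 1 at 2.17.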

How the data were processed

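Each scanner file gives spot intensity for 2 channels, per the file headers: a processed signal, with background subtracted and a linear dye factor applied, and median pixel signals. The software was Agilent Feature Extraction, with version 10.5.1.1 in the headers and version 8.5.1.1 in the submitters' processing notes, and the headers name mm9. The deposited log10 ratio had a correlation of 1 with the processed ratio and was not used further. The authors also deposited hit tables of linear knockout to wild type ratio values, whose normalisation no source used here gives.

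For methylation, the log2 ratio of processed signals was median centred per array, without loess. Spots had to be well above background in either channel on both arrays, and probes with starts up to 500 bp apart were joined and averaged over the whole array. Intervals were tested with limma 3.58.1 in R 4.3.3 (lmFit and eBayes) and with the submitters' 1.6-fold rule. The 2 arrays leave 1 difference per interval, and their number limits the precision. For expression, median signals were corrected with normexp (offset 50), normalised by loess and fitted in limma with a dye term over 14698 genes, the brightest probe standing for its gene. Adjustment was by Benjamini-Hochberg at 0.05. The procedures were tested on simulated data. The named intervals were those past 1.6-fold, those in the authors' hit tables, and per window the one with the most probes and the one with the largest mean difference among those of at least 2 probes with one direction. Others were chosen after their values were seen. Alternatives changed the background, centring, filter, joining, fold and arrays. The windows, gene lists and tests were chosen with earlier results of these data known.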

Additional observations from a re-analysis of the deposited data

How the results depend on the processing

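Counts of imprinted intervals past 1.6-fold on both arrays are small and move with most choices. The 2 higher and 2 lower became 0 and 8 with normexp background (0.231% and 7.73% of all intervals), 4 and 7 at 1.3-fold, and 1 and 0 at 2-fold. The higher count was 1 after loess or with both channels above background, the lower count was 1 without centring and 4 with no filter or with single probes, and each was 1 when probes up to 1000 bp apart were joined. With 1 array left out there were 3 to 9 higher and 10 to 12 lower, since 1 array then decides. Filter and joining also change how many intervals are counted. Shares over all intervals are given here only for the main setting and normexp, so the other counts show no excess or lack in the windows.

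The 18 and 17 intervals whose samples did not overlap became 1 and 2 without centring, where the arrays differ in brightness. They became 30 and 28 with joining at 250 bp, and 56 and 58 as single probes. Shorter joining gives more units to count, so these larger counts are not larger shares by themselves, and shares over all intervals are not given for them. Those below wild type were 29 with normexp and 10 with joining at 1000 bp. limma called 6 with normexp and 0 under the other alternatives run, with an intensity trend or separate channels included. It could not be run with 1 array left out, nor could the overlap count.

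With normexp the Meg3 interval chr12:110783676-110784011 reversed to -0.37 and the chr7:149712320-149712379 probe to -0.64. The H19 to Kcnq1 median stayed between -0.35 and -0.19 under all 11 alternatives, and the Grb10 and Peg3 medians kept their sign, while the other 7 changed sign in at least 1. No imprinted transcript was called under any alternative.

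Each two-colour array compares the samples of 1 pair, so the ratios and the fits to them already use the pairing. Beyond these fits, no paired analysis was possible because a replicate block cannot be added to ratios taken within a pair. The 2 expression arrays whose numbers the methylation arrays share leave no residual degrees of freedom beside the dye term. Spots near background limit the single-probe intervals most.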

Other observations

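Genes that write, read or protect DNA methylation were measured on the expression arrays as well. Of 20 listed genes 17 were measured, limma called 0, with 0% of all genes called, and 1 had an unadjusted p under 0.05. The list's median ratio was 0.03. Dnmt1, the maintenance methyltransferase, was at -0.51, -0.18, 0.15 and 0.36 in pairs 1, 2, 4 and 5. Dnmt3b, a de novo methyltransferase, lay between -0.15 and 0.22. Trim28, which protects methylation of imprinted control regions in the early embryo, had a mean of -0.09. Its partner Zfp57 was well above background on 2 of 4 arrays in wild type and on 0 in the knockout, so no ratio is given. The mean of Ctcf, the insulator protein, was 0.16 with an SD of 0.371 (n = 4). Tet2, which oxidises methylcytosine, was above 0 on all 4 arrays, at 0.33, 0.08, 0.70 and 0.71 (mean 0.46, SD 0.304, limma adjusted p = 0.595). It did not pass that test, but it met the submitters' rule for transcripts as a higher gene, as did 0.762% of all genes. It passed 1.6-fold only in pairs 4 and 5, the arrays where the knockout RNA carried Cy5. The part of dye in this ratio was not tested.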
